A study of Homo sapiens with 12 samples.

Results

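The TNF response of WT cells with active topoisomerase I (TOP1) was described in 4 of the 12 RNA-seq libraries of the series, chosen by their labels as 2 matched pairs. The first pair holds WT HCT116 cells without inhibitor at 0 h and at 1 h of TNFα (20 ng/mL). The second pair holds WT HCT116 cells incubated for 2 h with 5 µM ICRF193, an inhibitor of topoisomerase II, again at 0 h and at 1 h of TNFα. HCT116 is a human colon cancer cell line. The other 8 libraries are WT cells with 5 µM of the TOP1 inhibitor camptothecin (CPT) and p65-deficient cells of a single clone, clone 32, with no inhibitor, CPT or ICRF193, all at 0 h and 1 h of TNFα. The question behind the 4 libraries was which genes TNFα raised and which it lowered in both pairs. Each condition is 1 library, so the pairs stand in for replicates, and because they differ by ICRF193 an effect of that inhibitor on a response cannot be told apart from variation between cultures.

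TNFα binds its receptor at the cell surface and activates the IKK kinases, which mark the IκB inhibitors for degradation and release NF-κB dimers to the nucleus. NF-κB then raises chemokines, survival factors and its own inhibitors, so that the signal ends itself. The same receptor activates JNK and p38 kinases, which act on AP-1 factors such as JUN.

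Between 16300210 and 22051046 reads were counted in each of the 4 libraries, the most in the library without inhibitor at 0 h. The sum of 8 epithelial and colon markers, in counts normalized by DESeq2 size factors, lay between 52570 and 53160, while 6 immune cell markers summed to between 4.06 and 5.62, 5 fibroblast markers to between 74.6 and 95.2 and 4 endothelial markers to between 11.5 and 19.0. *CD3E* and *LUM* had no read in any of the 4 libraries. None of the 8 genes of the topoisomerase list, which holds *TDP1* and *TDP2* beside the topoisomerases, passed the test for a TNFα effect.

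Promoter sequences are given for raised chemokine, cytokine, feedback and survival genes and for *JUN*, with and without a match to the letters searched for NF-κB and AP-1. They are not all the genes with the highest ratios. Each line is the 150 bases before the annotated start, 5′ to 3′ on the strand of the gene, from RefSeq on GRCh38.p14, a different build from the hg19 of the counts. Capitals mark matches to the NF-κB letters GGANTTTCC or GGGANTTCC, the AP-1 letters TGANTCA or the cyclic AMP response element letters TGACNTCA, on either strand.
CXCL8, chr4:73740419-73740568, plus strand: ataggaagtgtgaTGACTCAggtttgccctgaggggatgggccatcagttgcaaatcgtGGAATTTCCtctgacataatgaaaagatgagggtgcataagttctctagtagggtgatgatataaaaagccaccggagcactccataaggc
CXCL1, chr4:73869243-73869392, plus strand: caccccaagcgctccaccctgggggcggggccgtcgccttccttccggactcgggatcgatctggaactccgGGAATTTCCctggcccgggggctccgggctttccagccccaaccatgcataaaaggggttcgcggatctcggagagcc
CXCL2, chr4:74099196-74099345, minus strand: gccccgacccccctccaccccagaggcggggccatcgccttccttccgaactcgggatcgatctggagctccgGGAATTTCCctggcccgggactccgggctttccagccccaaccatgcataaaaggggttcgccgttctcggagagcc
CXCL3, chr4:74038690-74038839, minus strand: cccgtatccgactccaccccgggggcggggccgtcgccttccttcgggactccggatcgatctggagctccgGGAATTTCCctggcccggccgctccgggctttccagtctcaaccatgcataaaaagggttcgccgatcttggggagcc
NFKBIA, chr14:35404750-35404899, minus strand: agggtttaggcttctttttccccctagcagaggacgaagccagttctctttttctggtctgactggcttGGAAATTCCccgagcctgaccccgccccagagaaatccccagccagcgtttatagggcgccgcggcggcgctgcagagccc
TNFAIP3, chr6:137867109-137867258, plus strand: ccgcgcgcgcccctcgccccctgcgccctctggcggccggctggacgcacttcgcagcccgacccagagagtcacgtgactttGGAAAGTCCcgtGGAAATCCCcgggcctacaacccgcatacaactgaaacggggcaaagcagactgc
BIRC3, chr11:102317334-102317483, plus strand: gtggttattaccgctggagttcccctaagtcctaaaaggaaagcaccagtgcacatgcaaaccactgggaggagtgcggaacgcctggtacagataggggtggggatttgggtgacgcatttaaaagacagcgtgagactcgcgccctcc
CCL20, chr2:227813692-227813841, plus strand: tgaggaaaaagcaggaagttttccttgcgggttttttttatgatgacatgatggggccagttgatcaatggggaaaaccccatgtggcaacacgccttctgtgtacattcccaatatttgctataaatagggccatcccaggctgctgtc
CSF2, chr5:132073639-132073788, plus strand: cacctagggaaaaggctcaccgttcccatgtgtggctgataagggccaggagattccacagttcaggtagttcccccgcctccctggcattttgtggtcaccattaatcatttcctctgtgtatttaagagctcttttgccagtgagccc
JUN, chr1:58784048-58784197, minus strand: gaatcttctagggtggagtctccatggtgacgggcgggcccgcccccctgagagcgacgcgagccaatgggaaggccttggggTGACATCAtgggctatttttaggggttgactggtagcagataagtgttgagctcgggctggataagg

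The 3 nearby chemokine genes *CXCL1*, *CXCL2* and *CXCL3* carried the same match, GGAATTTCC, between 69 and 78 bases before the start, and *CXCL8* carried it between 83 and 91 bases before the start, next to an AP-1 match that ends 131 bases before it. *NFKBIA* and *TNFAIP3* held 2 NF-κB matches each in the 250 bases before the start, of which the first of *NFKBIA* lies outside the stretch shown. The stretches of *BIRC3*, *CCL20* and *CSF2* held no match to any of the letters, and in the 250 bases *BIRC3* had an NF-κB match between 191 and 199 bases before the start while *CCL20* and *CSF2* had none. *JUN* held no NF-κB match there, and its match was to the cyclic AMP response element letters. Among the 33 genes raised over 2-fold in both pairs, 28 had a promoter in the table, and 11 of these (39.3%) held an NF-κB match within 250 bases, beside 3.49% of the 9916 tested genes with a promoter and 3.04% of all 27305 promoters. AP-1 letters were found in 3 of the 28 (10.7%), beside 3.79% of the tested genes and 6.6% of all promoters. Cyclic AMP response element letters were found in 1 of the 28 (3.57%), beside 5.62% and 7.09%. A match is a description of the letters, not a measured binding site.

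TNFα raised a small group of genes by a lot and lowered no gene by a comparable amount. Of the 13078 genes that reached 20 reads in any of the 4 libraries, 33 (0.252%) rose over 2-fold and beyond counting error in both pairs, and 0 (0%) fell in that way. Counting error was taken from exact Clopper-Pearson 95% intervals, which compare libraries and do not cover variation between cultures. In the pair without inhibitor 52 genes rose over 2-fold and 50 fell, and in the ICRF193 pair 61 rose and 19 fell. All 33 genes raised in both pairs lie within the 52 and the 61, whereas the 50 and the 19 lowered genes shared no gene.

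At any fold, 403 genes (3.08%) rose beyond counting error in both pairs, 228 (1.74%) fell, and 71 (0.543%) moved in opposite directions in the pairs. The edgeR quasi-likelihood test over the 4 libraries, with the pair as a block and Benjamini-Hochberg adjustment over 13625 genes, called 201 genes raised (1.48%) and 171 lowered (1.26%). Of the raised calls, 190 were beyond counting error in both pairs, as were 122 of the lowered calls. The log2 fold change of the raised calls ran from 0.12 to 6.53 with a median of 0.32, and the size of the lowered calls from 0.13 to 0.96 with a median of 0.21. Only 39 raised calls and 0 lowered calls had a log2 fold change over 1 in size. The fit has 1 residual degree of freedom per gene, and its standard errors (SE) can be smaller than the spread between cultures. The number of calls depended on the method, and DESeq2 on the same libraries called 63 genes raised and 2 lowered, while edgeR without the pair as a block called 90 raised and 11 lowered.

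**Figure D1:**
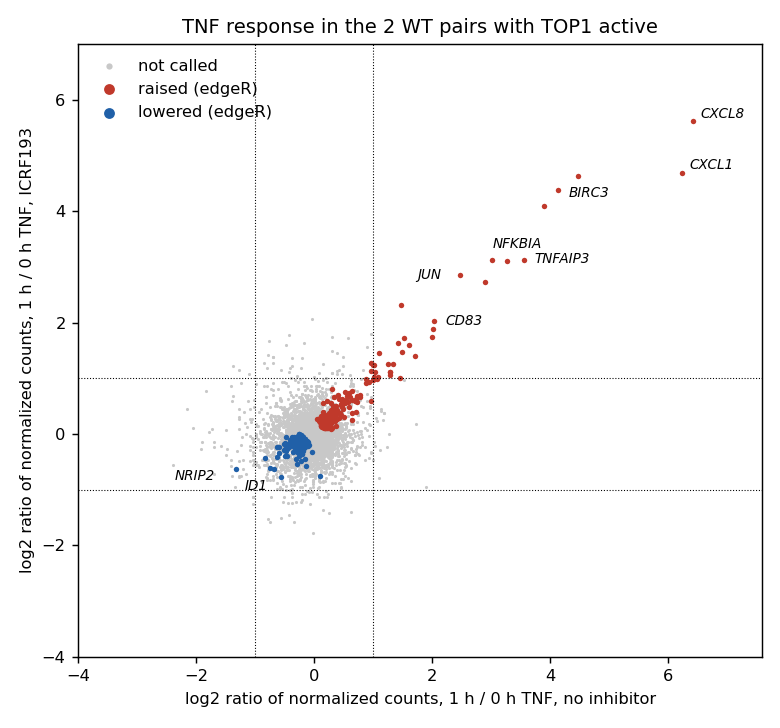
Each point is a gene that reached 20 reads in any of the 4 libraries, placed by its log2 ratio of normalized counts at 1 h to 0 h of TNFα without inhibitor (horizontal) and with ICRF193 (vertical), and coloured by the edgeR call. Dotted lines mark a log2 ratio of 1 in either direction, and the upper right corner holds the 33 raised genes except *CCL20*, *CSF2* and *TNFRSF9*, which had 0 reads in a library at 0 h, while no lowered gene reaches the lower left corner.

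Among the named genes, the largest fitted log2 fold changes were those of the secreted signals *CCL20* (6.53), *CSF2* (6.04) and *CXCL8* (6.01). The list of chemokines and cytokines has 30 genes, of which 12 had enough reads to be tested. Of these 9 rose, beside 1.48% of all genes tested. *CCL20*, *CSF2*, *CXCL1*, *CXCL2*, *CXCL3*, *CXCL8* and *EDN1* had at most 15 reads in each library at 0 h and reached 20 reads only with TNFα, so that the count is no measure of the list as a whole. *CXCL8*, which attracts neutrophils, had 12 reads without and 831 reads with TNFα in the absence of inhibitor, and 15 and 808 reads with ICRF193. These are rises of 85.6-fold (log2 ratio 6.42, interval 5.61 to 7.38) and 48.9-fold (5.61, interval 4.88 to 6.46), with an adjusted p of 2.00e-45 in edgeR. The libraries at 1 h were close to each other and far from both at 0 h.

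*CXCL1*, a chemokine of the same family, went from 6 to 365 reads without inhibitor and from 11 to 313 reads with ICRF193, a rise of 75.2-fold and of 25.9-fold. The difference between its log2 ratios was 1.54 (interval 0.09 to 2.99, counting error only), which rests on the few reads at 0 h. *CXCL2* (22.1-fold and 24.8-fold) and *CXCL3* (14.8-fold and 17.0-fold) rose by like amounts in the pairs. All 4 genes lie on chromosome 4 of hg19 between positions 74606223 and 74964997. Within that interval *CXCL5*, *PF4*, *PF4V1*, *PPBP* and *PPBPP2* had 0 reads in each of the 4 libraries, and *CXCL6* had 2 reads in 1 library, so the rise covered some genes of the cluster and left others unread.

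*CCL20*, which attracts lymphocytes and dendritic cells, went from 0 to 54 reads without inhibitor and from 1 to 55 reads with ICRF193. The first is at least 22.3-fold, taking 3 reads as the limit that a count of 0 allows, and the second was a log2 ratio of 5.64 (interval 3.10 to 10.97). *CSF2*, the growth factor GM-CSF, went from 1 to 43 and from 0 to 32 reads, the latter at least 9.69-fold. *CSF1*, which sustains macrophages, rose by 1.07 ± 0.15 (log2 fold change ± SE, adjusted p = 2.73e-07 in edgeR), *EDN1*, the vasoconstrictor endothelin, rose by 1.55 ± 0.38 (adjusted p = 0.0076), and *LIF*, an IL-6 family cytokine, rose by a log2 fold change of 0.39 ± 0.05. *TNF* itself went from 0 to 6 and from 0 to 7 reads, *IL6* and *CCL2* had at most 1 read in any of the 4 libraries, and these 3 genes were not tested.

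**Figure D2:**
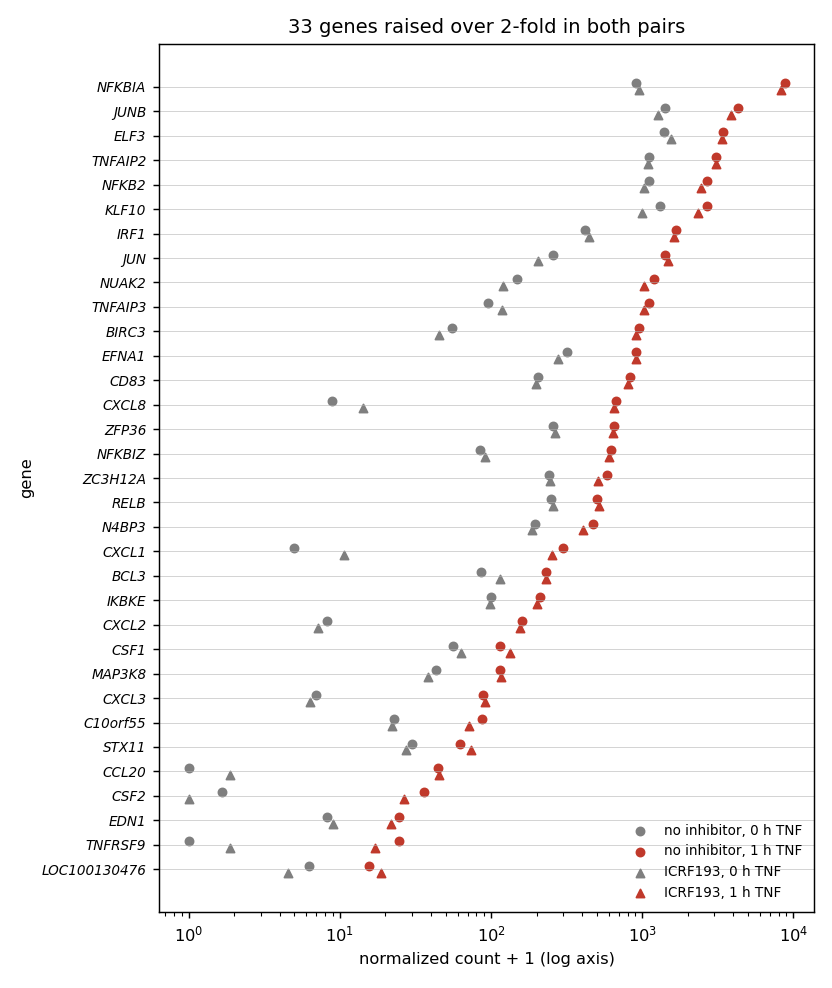
Normalized counts plus 1 (log axis) of the 33 genes raised over 2-fold in both pairs, with 1 point per library, grey at 0 h and red at 1 h of TNFα, circles without inhibitor and triangles with ICRF193. For every gene both red points lie to the right of both grey points, and *NFKBIA* reaches 8758 normalized counts.

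Feedback inhibitors of NF-κB also rose. Of 15 listed genes 14 were tested, 7 rose and 0 fell, where 1.48% of all genes tested rose and 1.26% fell. *NFKBIA*, which encodes IκBα and holds NF-κB in the cytoplasm, went from 1385 to 10789 reads without inhibitor and from 1084 to 10252 with ICRF193, a rise of 9.63-fold and 8.59-fold. Per length it was the most abundant of the 33 genes at 1 h without inhibitor, with a TPM value (reads per kilobase of exon, scaled to the same total in every library) of 69.1 at 0 h and 665 at 1 h. *TNFAIP3*, which encodes the ubiquitin-editing enzyme A20, rose 11.7-fold and 8.76-fold from 143 and 132 reads, and *NFKBIZ*, a nuclear IκB protein, rose 7.44-fold and 6.65-fold. *BCL3*, another nuclear IκB protein, had log2 ratios of 1.45 and 1.01. *NFKBIE*, *NFKBID* and *TNIP1* rose by less, with log2 fold changes of 0.89, 0.54 and 0.20. The members that did not pass, among them *CYLD* and *NFKBIB*, had log2 fold changes between −0.01 and 0.14.

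The NF-κB subunits rose except for p65, but the smaller rises depended on the method. *NFKB1* lost its call in DESeq2 and in edgeR without the pair as a block (adjusted p = 0.137). *REL* lost it in DESeq2 (adjusted p = 0.172). *NFKB2* (p100 and p52) had log2 ratios of 1.26 in each pair, *RELB* 1.01 and 1.02, *REL* 0.55 and 0.60 and *NFKB1* (p105 and p50) 0.21 and 0.16. *RELA*, which encodes p65, had a log2 fold change of 0.01 (adjusted p = 0.95 in edgeR). Of 22 tested genes of the TNF receptor complex and the IKK kinases, 2 rose, beside 1.48% of all genes tested. These were the kinase genes *IKBKE* (1.06 ± 0.12) and *MAP3K8* (1.51 ± 0.17), while the receptor gene *TNFRSF1A* was at −0.02 and *RIPK1* at 0.03.

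Among 17 tested survival and cell death genes 9 rose and 0 fell, where 1.48% of all genes tested rose and 1.26% fell. *BIRC3*, an inhibitor of apoptosis protein that ubiquitinates RIPK1, went from 83 to 1175 reads without inhibitor and from 50 to 1141 with ICRF193, a rise of 17.5-fold and 20.7-fold. Its relative *BIRC2* rose by a log2 fold change of 0.41 ± 0.05. *IER3*, an early survival gene annotated at several loci, had log2 ratios of 1.02 and 0.99. Genes that promote death were among the raised ones, with *BBC3* (PUMA) at 0.66 ± 0.09, *PMAIP1* (NOXA) at 0.52 ± 0.05 and *TNFRSF10B*, a TRAIL receptor, at 0.22 ± 0.04. The remaining raised members were *GADD45B* (0.38 ± 0.07), *GADD45A* (0.36 ± 0.07) and the mitochondrial superoxide dismutase *SOD2* (0.17 ± 0.04).

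The AP-1 and early response genes rose in part. Of 12 tested AP-1 genes 7 rose and 0 fell, where 1.48% of all genes tested rose and 1.26% fell. *JUN* went from 390 to 1753 reads without inhibitor and from 230 to 1831 with ICRF193, a rise of 5.56-fold and 7.23-fold whose log2 ratios differed by −0.38 (interval −0.63 to −0.13). *JUNB* rose 3.05-fold and 3.01-fold and *ATF3* 2.10-fold and 1.97-fold. The small Maf gene *MAFF* rose by 0.92 ± 0.06, *FOSL2* by 0.41 ± 0.06, *JUND* by 0.29 ± 0.04 and *FOSL1* by 0.21 ± 0.04. *FOS*, the usual partner of JUN, had 205 and 157 reads without inhibitor and 229 and 189 with ICRF193, and its log2 fold change of −0.26 did not pass (adjusted p = 0.28 in edgeR). Of 22 tested other immediate early genes 9 rose and 2 fell, among them *KLF10* (1.11 ± 0.04) and *BTG2* (0.74 ± 0.06), while *EGR1* at 0.21 did not pass. *KLF6* (0.53 ± 0.05), *PLK3* (0.51 ± 0.05), *PLK2* (0.48 ± 0.03) and *CYR61* (0.41 ± 0.06) rose, *IER2* (0.24 ± 0.04), *NR4A1* (0.20 ± 0.06) and *MYC* (0.16 ± 0.03) rose by less, and the genes that fell were *KLF2* (−0.34 ± 0.10, and −0.13 without the ICRF193 pair) and *IER5* (−0.22 ± 0.04).

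Of 7 tested mRNA decay factors 4 rose and of 11 tested DUSP phosphatases, which switch off MAP kinases, 3 rose, beside 1.48% of all genes tested. *ZFP36* (tristetraprolin), which marks AU-rich mRNAs for decay, had log2 ratios of 1.34 and 1.26, and *ZC3H12A* (regnase-1), an RNase, 1.28 and 1.06. *ZFP36L1* (0.34 ± 0.05) and *ZC3H12C* (0.31 ± 0.06) rose by less. The raised phosphatases were *DUSP8* (1.10 ± 0.15), *DUSP5* (0.61 ± 0.04) and *DUSP1* (0.56 ± 0.08), while the other 8 did not pass.

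Of 20 listed surface, adhesion and protease genes 15 were tested, 11 rose and 0 fell. Of all genes tested 1.48% rose and 1.26% fell. The gene *TNFRSF9* reached 20 reads only with TNFα, so its rise is no measure of the list. *CD83*, a surface protein of activated cells, rose 4.11-fold and 4.08-fold, and *EFNA1*, a ligand of Eph receptors, 2.86-fold and 3.29-fold. *PLAU* (urokinase) had log2 ratios of 0.97 and 1.14 and its receptor *PLAUR* 0.64 and 0.77. *TNFAIP2* rose by 1.48 ± 0.04, the proteoglycan *SDC4* by 0.93 ± 0.04, the laminin chain *LAMB3* by 0.31 ± 0.04, the receptor *EPHA2* by 0.22 ± 0.04 and tissue factor, *F3*, by 0.20 ± 0.04. *C10orf55*, at 1.99 and 1.74, overlaps *PLAU* on the opposite strand, and *LOC100130476* overlaps *TNFAIP3* in the same way. Reads were counted without regard to strand, so reads of each gene and its antisense partner cannot be told apart. *TNFRSF9* (4-1BB), a costimulatory receptor, went from 0 to 29 reads without inhibitor, at least 11.9-fold, and from 1 to 20 with ICRF193. *IRF1* was the 1 raised gene of 14 tested interferon regulatory and response genes, at 4.02-fold and 3.67-fold. *NUAK2*, an AMPK-related kinase, rose 8.09-fold and 8.69-fold, and *ELF3*, an epithelial ETS factor, 2.44-fold and 2.16-fold. *N4BP3* rose by 1.21 ± 0.08. Of 12 tested EGFR ligands and feedback genes 3 rose, the ligand *EREG* (0.38 ± 0.04), *ERRFI1* (0.22 ± 0.04) and *PHLDA1* (0.20 ± 0.04), and of 14 reference genes only *B2M*, the light chain of MHC class I, passed (0.22 ± 0.04).

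The falls were smaller, and the lowest p among them was that of *ID1*. This gene, which blocks basic helix-loop-helix factors and is a target of BMP signalling, went from 4034 to 1937 reads without inhibitor and from 2641 to 1892 with ICRF193. Its normalized count was 2648 and 1572 in the first pair and 2333 and 1518 in the second, a log2 ratio of −0.75 (interval −0.83 to −0.67) and −0.62 (interval −0.71 to −0.53), with an adjusted p of 1.1e-23 in edgeR. *ID2* had log2 ratios of −0.46 and −0.26, while *ID3* at −0.04 did not pass. *ID1* and *ID2* were the 2 genes that DESeq2 called lowered. Of the falls named here, *ID1* alone kept its call in DESeq2, without the pair as a block and without either pair, and *ID2* lost it without the no-inhibitor pair (adjusted p = 0.705 in edgeR).

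Of 8 tested Wnt targets 2 fell and 1 rose, where 1.26% of all genes tested fell and 1.48% rose. *AXIN2*, a feedback inhibitor of Wnt signalling, went from 218 to 119 and from 166 to 107 reads (−0.66 ± 0.13, adjusted p = 0.00038 in edgeR), and *RNF43*, which removes Wnt receptors, had log2 ratios of −0.36 and −0.32. *WNT10A*, a ligand, rose by 0.99 ± 0.24, but lost its call in DESeq2 and in edgeR without the pair as a block (adjusted p = 0.089). *DACT1*, a Wnt pathway regulator, was at −0.66 ± 0.15. In DESeq2 the adjusted p of *AXIN2*, *RNF43* and *DACT1* was 1. The largest fitted fall was *NRIP2*, with 53 and 17 reads without inhibitor and 38 and 27 with ICRF193, and it was beyond counting error in the first pair only. Other large falls were *GPR162* (−0.67 ± 0.18), *PRR12* (−0.53 ± 0.10), the small nucleolar RNA gene *SNORA64* (−0.46 ± 0.07), *MLXIPL* (−0.45 ± 0.10) and *LOC90784* (−0.43 ± 0.09), and of these *GPR162* was within counting error with ICRF193. Each of these 5 lost its call in DESeq2 and in the edgeR fit without the no-inhibitor pair, where *SNORA64* moved to −0.23 and *GPR162* to −0.43.

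**Figure D3:**
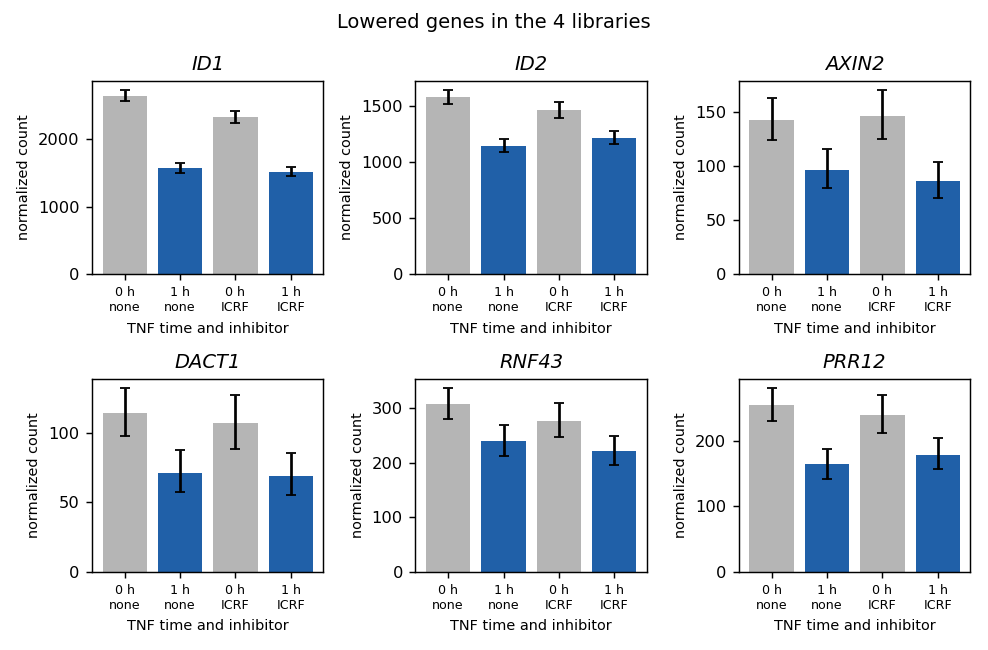
Normalized counts of 6 lowered genes in the 4 libraries, grey bars at 0 h and blue bars at 1 h of TNFα, each axis from 0, with exact Poisson 95% intervals that cover counting error only. For all 6 genes both bars at 1 h are below both bars at 0 h, and *ID1* goes from 2648 to 1572 without inhibitor.

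As a group the lowered genes were long and rich in GC. The median exonic length was 5446 bp for the 171 lowered genes, 2679 bp for the 201 raised genes and 3160 bp for all genes tested, and the median GC content was 58.5%, 48.9% and 48.8%. Of the lowered genes 133 of 171 fell more in the pair without inhibitor. Of 222 small nuclear or nucleolar RNA genes tested, 14 fell and 1 rose, where 1.26% of all genes tested fell and 1.48% rose. Over the 178 genes with GC above 58% and exonic length above 6000 bp, whether called or not, the median log2 ratio was −0.14 without inhibitor and −0.07 with ICRF193. In a fit with an offset for length and GC content, chosen after seeing these values, 61 of the 171 lowered genes and 150 of the 201 raised genes were still called. Those 61 had a median exonic length of 3071 bp and a median GC content of 52.2%, values tied to the offset, which acts on both traits. *ID1*, *ID2*, *AXIN2*, *RNF43* and *DACT1* were among the 61, and *NRIP2* was among them with an adjusted p of 0.044 in edgeR. The part of library composition in the other falls was not tested.

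**Figure D4:**
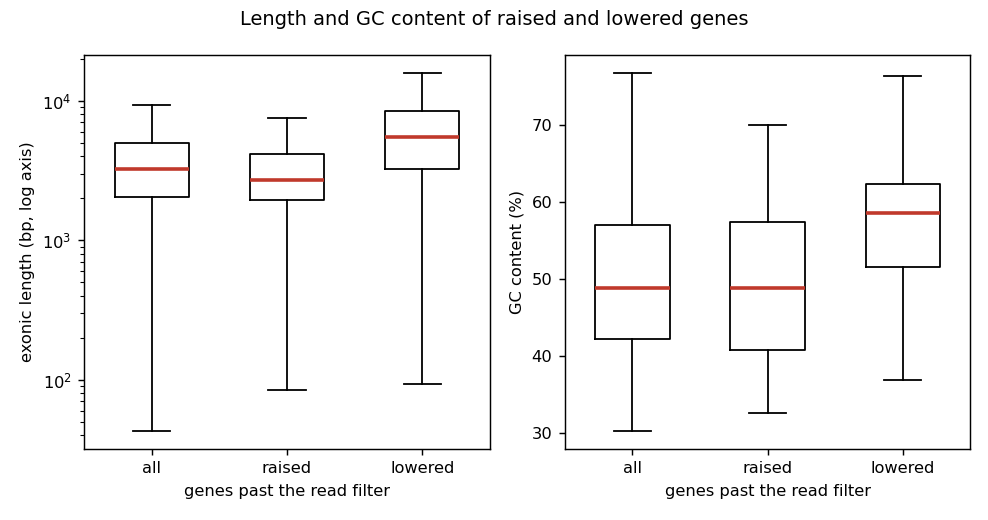
Exonic length (bp, log axis) and GC content (%) of all genes past the read filter and of those called raised or lowered by edgeR, with the median in red, the box from the first to the third quartile and whiskers to the last value within 1.5 box lengths. The lowered genes sit higher on both axes, with medians near 5446 bp and 58.5%.

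The pairs also disagreed on some genes. *RPL7*, a ribosomal protein gene with many processed copies, had a log2 ratio of −0.99 without inhibitor and 0.90 with ICRF193, on 18 to 69 reads, the widest gap among the 71 genes that moved in opposite directions. Of the 40 genes that the study listed as TNF-induced on these samples, which is not independent evidence of their direction, 33 rose here and 30 were over 2-fold in both pairs. The 7 that did not pass were *MIR3916*, *LYRM5*, *PHOSPHO1*, *CFLAR-AS1*, *C18orf32*, *COX20* and *GUCY1B2*, with log2 fold changes between 0.07 and 0.80. Each was over 2-fold in the pair without inhibitor and within counting error in the ICRF193 pair.

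The response was set against that of WT cells with CPT by an edgeR interaction over the 6 WT libraries. The signed log2 TNFα effect was higher with TOP1 active for 295 of 13707 genes (2.15%) and lower for 280. A lower effect can be a smaller rise or a deeper fall with TOP1 active. The balance depended on the method, with 20 higher and 1 lower in DESeq2 and 29 and 6 in edgeR without the pair as a block. Because the 33 raised genes were chosen on their ratios in 4 of these libraries, their values with CPT are a description. Over the 28 of them with reads in all 12 libraries, the median log2 ratio was 1.56 without inhibitor, 1.61 with ICRF193 and 0.38 with CPT. *BIRC3* went from 47 to 75 reads with CPT, and its log2 effect was higher by 3.74 ± 0.34 with TOP1 active. *JUN* with CPT went from 2025 to 3608 reads, so that it started higher than in the other WT libraries.

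The p65-deficient cells were compared without inhibitor and with ICRF193. *RELA*, the targeted gene, had between 547.9 and 618.5 normalized counts in these 4 p65-deficient libraries and between 858.7 and 908.5 in the 4 WT libraries. The labels call these cells shRNA p65, while the study describes a CRISPR-Cas9 clone that lacks p65 and heads its gene list sgRNA p65. What lowered the *RELA* counts was not tested. The signed log2 TNFα effect was higher in WT cells for 70 of 13631 genes (0.514%) and lower for 55, where lower includes deeper falls in WT cells. The counts were 26 and 7 genes in DESeq2, 33 and 9 in edgeR without the pair as a block and 48 and 12 without the WT pair lacking inhibitor. For the raised genes, chosen on the same WT libraries, the values that follow are again a description. Over the same 28 genes the median log2 ratio in p65-deficient cells was 0.02 without inhibitor and 0.14 with ICRF193. *NFKBIA* had 1468 and 660 reads without inhibitor in libraries of unequal depth, a log2 ratio of 0.12, and its effect was higher in WT cells by 2.97 ± 0.08. *JUN* differed from this pattern, with log2 ratios of 2.71 and 2.56 in p65-deficient cells, and its difference between the cell lines was −0.03 ± 0.13 (adjusted p = 0.97). Of the 26 raised genes tested for such a difference, *CSF1* and *STX11* were not called either. *ATF3* had log2 ratios of 1.06 and 0.94 in p65-deficient cells, with a difference of 0.01 ± 0.12 (adjusted p = 0.99). *ID1* had log2 ratios of −0.30 and −0.28 in p65-deficient cells, and the difference was −0.41 ± 0.06 (adjusted p = 5.97e-06).

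**Figure D5:**
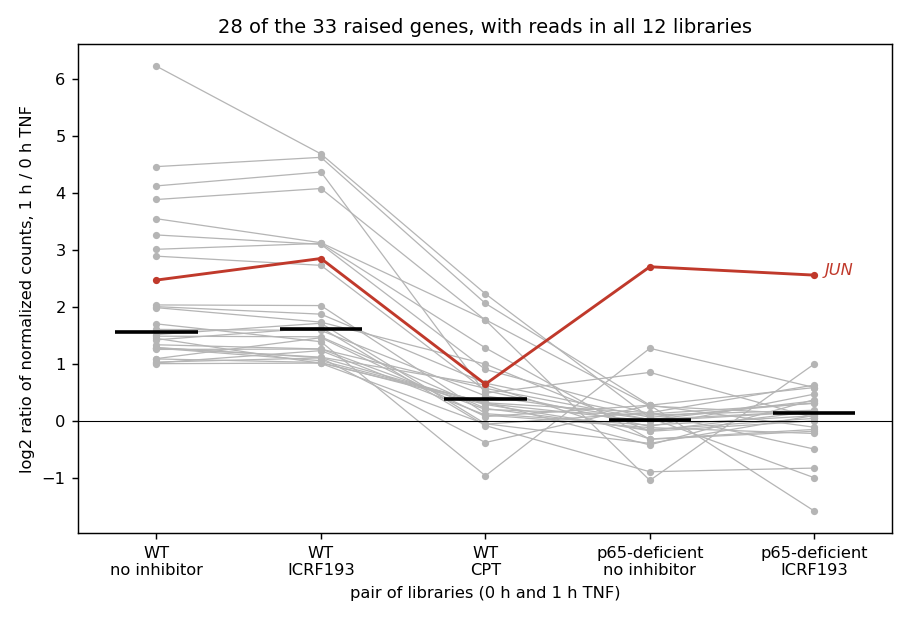
The log2 ratio of normalized counts at 1 h to 0 h of TNFα for the 28 raised genes with reads in all 12 libraries, 1 line per gene, in 5 pairs of libraries, with *JUN* in red and the median as a black bar. The median is 1.56 and 1.61 in the WT pairs with TOP1 active, 0.38 with CPT and 0.02 and 0.14 in p65-deficient cells, where *JUN* stays above 2.5.

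The strongly raised genes had short spans. The 33 genes spanned a median of 9.86 kb with 6 exon blocks, beside 26.2 kb and 9 exon blocks over all genes tested. Their median normalized count was 93.9 at 0 h without inhibitor, beside 406. A ratio divides by the count at 0 h, so the low median there is tied to how the 33 were chosen. Across the 10104 genes with a mean normalized count of at least 100, the ratios of the pairs had a Pearson r of 0.67 and a Spearman rho of 0.26, and without the 33 genes a Pearson r of 0.35. These are across genes of shared libraries and describe only these libraries.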

How the data were processed

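The series holds 12 RNA-seq libraries of HCT116 cells, 1 per condition. The deposited values are raw read counts: per the file headers, the authors counted reads per gene with featureCounts 1.5.0 on hg19, for 26364 gene symbols, without a strand option. The processing notes also name Trimmomatic and STAR, with versions not given in the sources used here. Every row named a gene. Samples were grouped by their labels. Counts were divided by DESeq2 (1.42.0) size factors of the 12 libraries for log2 ratios without a pseudocount, with Clopper-Pearson 95% intervals (SciPy). Tests used edgeR 4.0.16 (TMM normalization, filterByExpr, quasi-likelihood test, a block for the pair, adjusted p under 0.05). Pairs stand in for replicates, and intervals cover counting error only. The edgeR fits for the 3 comparisons and the ratio rules were tested on simulated data. The gene lists and members were chosen with earlier results of these data known. Named genes are the list members that passed or were raised in both pairs, the 10 largest rises and falls, other genes raised in both pairs and those that differed most between pairs. A gene that this rule names is not reported here. A few others were named after their values were seen, *RPL7* and genes that did not pass among them. Alternatives were other normalizations, filters, tools, fits without the block, over all 12 libraries, without 1 pair, and with a length and GC offset (GENCODE transcripts on GRCh38).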

Additional observations from a re-analysis of the deposited data

Results flagged for a closer look

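The TNFα effect differed between TOP1-active and CPT-treated WT cells for 575 genes in the edgeR interaction. Of the 33 raised genes 30 were tested for this difference, and *CCL20*, *CSF2* and *TNFRSF9* were not. Among the 30, the largest differences in log2 effect were 3.74 for *BIRC3*, 3.41 for *CXCL8*, 3.18 for *CXCL1*, 2.46 for *CXCL2* and 2.29 for *NFKBIZ*, each higher with TOP1 active. Between WT and p65-deficient cells the effect differed for 125 genes. Only 26 of the 33 raised genes were tested for this difference. *CCL20*, *CSF2*, *CXCL1*, *CXCL3*, *EDN1*, *LOC100130476* and *TNFRSF9* were not. The largest differences among the 26 were 4.82 for *CXCL2*, 4.51 for *CXCL8*, 3.66 for *BIRC3*, 3.30 for *NUAK2* and 3.15 for *TNFAIP3*, each higher in WT cells. These were flagged because the interaction term passed an adjusted p of 0.05. The genes were chosen on the WT ratios, so the sizes are a description.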

How the results depend on the processing

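The number of small changes depended on the method more than the strong rises did. Of 372 calls of the TNFα effect, 337 were made with DESeq2 size factors, 390 without a filter and 443 with at least 20 reads, but 65 by DESeq2 (63 raised, 2 lowered), 101 without the replicate block (90 and 11), 135 with all 12 libraries (109 and 26) and 253 with the length and GC offset (177 and 76), and 68 to 71 when 1 pair was left out. The cause of these differences was not tested. The 33 genes raised over 2-fold in both pairs were 29 to 36 under the other scalings and filters, 52 or 61 from 1 pair alone. For genes lowered over 2-fold the count of 0 became 1 without the read filter and 19 or 50 from 1 pair alone. Scaling by total reads moved the genes raised beyond counting error from 403 to 265 and those lowered from 228 to 355, and 1 pair alone gave 1081 to 1341 raised and 791 to 1217 lowered. For the CPT interaction 575 calls (295 higher and 280 lower with TOP1 active) became 21 by DESeq2 (20 and 1) and 35 without the replicate block (29 and 6), and leaving out a pair was not run, since no residual degrees of freedom remain. For the p65 interaction 125 calls (70 higher and 55 lower in WT cells) became 33 by DESeq2 (26 and 7), 42 without the replicate block (33 and 9) and 60 to 74 without 1 WT pair. Among the 33 genes, *CSF1*, *EDN1*, *LOC100130476*, *STX11* and *TNFRSF9* lost the call in DESeq2, *EDN1* and *LOC100130476* without the replicate block and *STX11* without the ICRF193 pair. *CCL20*, *CSF2*, *EDN1*, *LOC100130476* and *TNFRSF9* did not pass the filter of the fits over all 12 libraries or without 1 pair, so only 28 of the 33 were tested there. Low counts at 0 h limit the fold of *CCL20*, *CSF2*, *TNFRSF9* and *CXCL1*. Over all genes that the naming rule gave, 42 lost the call in DESeq2 and 22 without the replicate block. Among those that lost it in both were the small rises of *EPHA2*, *FOSL1*, *GADD45B*, *MYC*, *NFKB1*, *NR4A1*, *PHLDA1*, *SOD2* and *TNIP1*. The larger rise of *WNT10A* was lost in both as well.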
